A study of Mus musculus with 12 samples.

Results

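Thrombospondins and other matricellular proteins were examined through 9 genes, Thbs1, Thbs2, Thbs3, Tnc, Sparc, Postn, Fbln1, Fbln2 and Fbln5. Each gene was found by its symbol and had 1 probe set, out of 16475 probe sets tested in all. The genes were grouped by family with earlier results of these arrays known, and Thbs1 was included because it reads far higher in the IER2 clone than in its parental line. Differences between the clone and the parental cells are therefore given for these 9 genes as values without a test, and tests are reserved for the effect of the ligand within each cell line.

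Matricellular proteins are secreted into the extracellular matrix, where they act less as structural scaffold than as modulators of adhesion, protease activity and growth factor availability. Thrombospondin 1 and thrombospondin 2 are trimers that inhibit angiogenesis and bind CD36, CD47 and LRP1, and thrombospondin 1 can release TGF-beta from its latent complex. Thrombospondin 3 belongs to the pentameric branch of the family, which lacks the repeats through which thrombospondin 1 binds CD36. Tenascin C and periostin are raised in healing wounds and tumor stroma, SPARC binds collagen and calcium, and the fibulins tie elastic fibers and basement membranes together. Fibroblasts secrete most of these proteins.

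RNA came from NIH 3T3 mouse fibroblasts and was hybridized to Affymetrix Mm430_2.0 arrays, 12 in all and 3 in each of 4 groups. The inducible cells, labelled NIH 3T3-RheoSwitch-Ier2 and Klon11, are 1 clone of NIH 3T3 cells with the pNEBR-R1 plasmid of the switch and pNEBR-Ier2-hygro, which carries mouse Ier2, and the parental cells are labelled NIH 3T3. Inducible cells and parental cells were each given DMSO as vehicle or 200 nM of the switch ligand RSL-1 (RSL) and were harvested after 24 h. The growth protocol in the labels, worded the same for every sample, names G418 and hygromycin in the medium. Because the inducible cells are a single clone, effects of the plasmids, of the selection and of the choice of clone cannot be told apart. In the arrays, fewer cells of a kind and less RNA per cell cannot be told apart either.

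The first quartile of the log2 intensities lay between 6.23 and 6.30 on the 12 arrays, the median between 7.03 and 7.06 and the third quartile between 8.38 and 8.44. Arrays of the same group correlated at 0.9981 to 0.9992 and arrays of different cell lines at 0.9913 to 0.9932. All 9 fibroblast markers examined read above the median of every array, with summed linear intensities of 29356 to 32010 over the 4 groups. Of 6 epithelial markers and 6 endothelial markers none read above the median on all arrays, and 4 of each list stayed below the first quartile throughout, among them Pecam1 and Epcam. The summed intensities were 409 to 436 for the epithelial list. Those of the endothelial list were 442 to 458 in inducible cells given DMSO and 433 to 452 given RSL, above the 399 to 425 and 410 to 422 of the parental cells. Of 7 macrophage markers, Csf1r and Cd14 were above the median on all arrays while Ptprc was below the first quartile on all, with a sum of 925 to 973 in inducible cells given DMSO, 994 to 1037 given RSL, 1002 to 1008 in parental cells given DMSO and 1057 to 1062 given RSL. The part of other cell types in the results below was not tested. Ier2 itself averaged 9.02 in the inducible cells given DMSO and 8.55 in those given RSL, against 8.58 and 8.75 in the parental cells, and its probe set does not settle whether the transgene was induced. The paper reports that RSL induced IER2 in this clone, as protein on Western blots and as mRNA by qRT-PCR. Some of its doses and times differed from those of the arrays.

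Thbs1 stood far higher in the clone. Its log2 intensity was 10.10, 10.08 and 9.85 on the 3 inducible arrays given DMSO and 9.98, 10.08 and 10.00 on the 3 given RSL. The parental cells read 7.28, 7.35 and 7.46 with DMSO and 7.71, 7.53 and 7.39 with RSL. The lowest inducible array therefore lay 2.14 log2 units above the highest parental array. Under DMSO the means were 10.01 ± 0.14 (SD, n = 3) in the clone and 7.36 ± 0.09 (SD, n = 3) in the parental cells, a difference of 2.65 (standard error 0.07), or 6.26-fold. Only 2 of the 16475 probe sets had a larger difference in that direction. Under RSL the difference was 2.48 (standard error 0.07), or 5.57-fold. In the parental cells the Thbs1 probe set sat near the middle of each array, at a mean percentile of 56.1 under DMSO, and in the clone at 92.7.

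RSL left Thbs1 in the clone within 0.15 log2 units below and 0.17 above its DMSO level (95% interval), with an estimate of 0.01 (standard error 0.07, adjusted p = 0.985 from limma, where an adjusted p under 0.05 over all probe sets counts as a pass). The parental estimate was 0.18 (standard error 0.07, adjusted p = 0.458 from limma). The highest parental array was RSL replicate 1, at 7.71, and the RSL and DMSO arrays of the parental line overlapped. The difference between these responses, -0.17 with a 95% interval from -0.39 to 0.05, did not pass (adjusted p = 0.69 from limma).

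**Figure D1:**
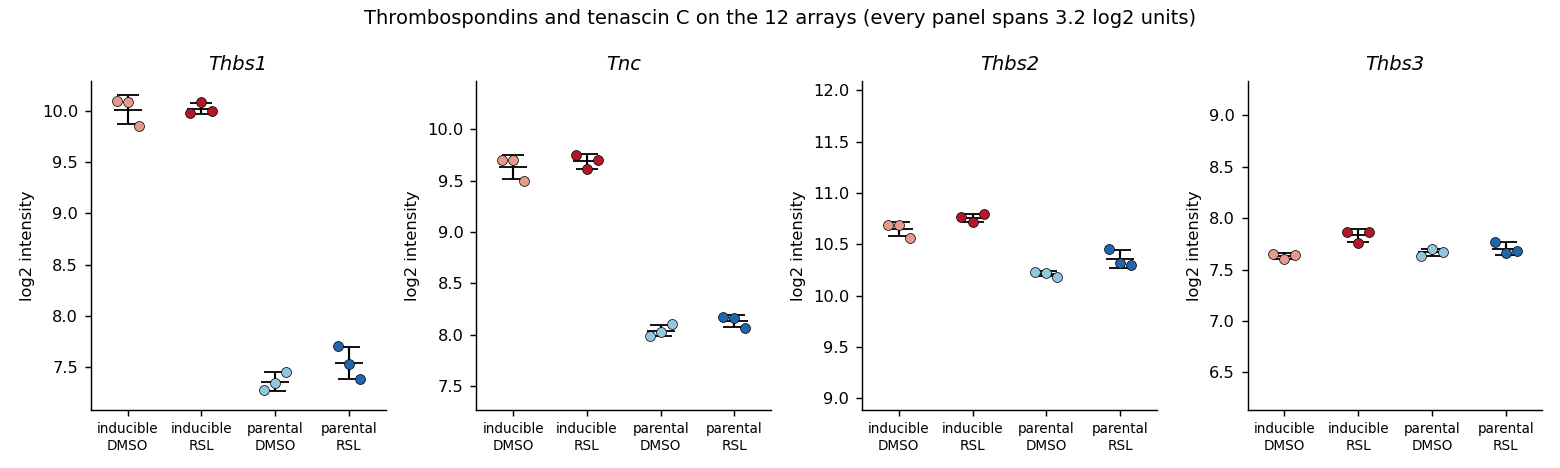
Log2 intensity of Thbs1, Tnc, Thbs2 and Thbs3 on each of the 12 arrays (points, 3 per group), with black bars for group means and SDs. Every panel has its own axis range of the same height. Thbs1, Tnc and Thbs2 sit higher on all 6 inducible arrays than on any parental array, while the groups of Thbs3 differ by at most 0.20 in their means.

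The probe sets most like Thbs1 over the 12 arrays were sought by the root mean square distance of their log2 values, after each probe set's own mean had been subtracted. Stra6, the membrane receptor for retinol uptake, was closest, at 0.13, followed by Cck, the cholecystokinin gene, at 0.19, Cox7b2, a cytochrome c oxidase subunit gene, at 0.20, Pnma5 at 0.21 and Dpep1, a membrane dipeptidase, at 0.31. The median distance over all probe sets was 1.29. The root mean square of Thbs1 about its own mean was also 1.29, so a flat probe set would lie about that far away. Each of these 5 genes shares with Thbs1 a large step between the cell lines, and between DMSO and RSL their inducible means differed by at most 0.19. Because Thbs1 was included for that step, the nearest probe sets had to share it. Nothing is read from the shared step. Stra6 read 9.85 in inducible and 7.17 in parental cells under DMSO.

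Tnc, which encodes the adhesion-modulating hexamer tenascin C, had the next largest difference among the 9 genes. Its inducible arrays read 9.70, 9.70 and 9.49 with DMSO and 9.75, 9.61 and 9.70 with RSL, and its parental arrays 7.99, 8.03 and 8.10 with DMSO and 8.17, 8.16 and 8.07 with RSL. The cell lines did not overlap and were separated by 1.32 log2 units. Under DMSO the difference was 1.59 (standard error 0.05), or 3.01-fold, and under RSL it was 1.55 (standard error 0.05), or 2.94-fold. The RSL estimates for Tnc were 0.06 in the clone (95% interval -0.06 to 0.17, adjusted p = 0.81 from limma) and 0.09 in the parental cells (-0.02 to 0.21, adjusted p = 0.579), and neither passed.

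Thbs2, the paralog closest to Thbs1 in domain structure, was high in both cell lines, above the third quartile on all 12 arrays. The inducible arrays read 10.69, 10.69 and 10.57 with DMSO and 10.77, 10.72 and 10.79 with RSL. On the parental arrays it read 10.23, 10.22 and 10.19 with DMSO and 10.45, 10.32 and 10.30 with RSL. Its 4 groups were fully separated in the order inducible RSL, inducible DMSO, parental RSL, parental DMSO. The clone exceeded the parental cells by 0.44 under DMSO (standard error 0.04, 1.35-fold) and by 0.40 under RSL (standard error 0.04, 1.32-fold). The RSL arrays lay above the DMSO arrays within each line. The means were higher by 0.11 in the clone (standard error 0.04, adjusted p = 0.295 from limma) and by 0.14 in the parental cells (standard error 0.04, adjusted p = 0.366), and neither passed over all probe sets. The responses of the lines differed by -0.03, with a 95% interval from -0.17 to 0.10 (adjusted p = 0.925 from limma). Without inducible DMSO replicate 3 the estimate in the clone was 0.07 (adjusted p = 0.664).

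Thbs3 had the only ligand effect that passed among the 9 genes, at a background of 2.54% of all probe sets called in the clone by limma. In the clone it read 7.65, 7.60 and 7.65 with DMSO and 7.87, 7.76 and 7.87 with RSL, so that all RSL arrays lay above all DMSO arrays. The mean rose from 7.63 ± 0.03 (SD, n = 3) to 7.83 ± 0.06 (SD, n = 3), which is 0.20 on the log2 scale with a standard error of 0.04 (adjusted p = 0.00937 from limma), or 1.15-fold. In the parental cells it read 7.63, 7.70 and 7.67 with DMSO and 7.77, 7.66 and 7.68 with RSL. These overlapped, and the estimate of 0.04 did not pass (adjusted p = 0.782 from limma). The difference between the lines was 0.17 (95% interval 0.05 to 0.28) and did not pass (adjusted p = 0.286 from limma), so the response is not shown to be particular to the clone. The call in the clone ended when inducible DMSO replicate 2 was left out (0.19, adjusted p = 0.0607) and when inducible RSL replicate 1 was (0.18, adjusted p = 0.0587). Unlike Thbs1 and Thbs2, Thbs3 overlapped between the cell lines, with differences of -0.04 under DMSO and 0.13 under RSL.

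Among the genes with an entry in the RefSeq promoter table (build GRCm38.p6), Tnc and Thbs2 had the largest differences between the cell lines. Thbs3 had the ligand effect that passed, and Thbs1 has no entry. The sequences upstream of Tnc, Thbs2 and Thbs3 are shown. Each run holds the 250 bases before the most upstream listed start, in the direction of the gene. Capitals mark matches on either strand. The TATA box was searched as TATAAA, the AP-1 motif was searched as TGANTCA, the GC box was searched as GGGCGG, the EGR motif was searched as GCGNGGGCG, the CCAAT box by the letters of its name, and the CArG box of serum response factor by its usual consensus. Tnc lies on the minus strand at chr4:64047016-64047265, Thbs2 on the minus strand at chr17:14694263-14694512 and Thbs3 on the plus strand at chr3:89214930-89215179.
Tnc: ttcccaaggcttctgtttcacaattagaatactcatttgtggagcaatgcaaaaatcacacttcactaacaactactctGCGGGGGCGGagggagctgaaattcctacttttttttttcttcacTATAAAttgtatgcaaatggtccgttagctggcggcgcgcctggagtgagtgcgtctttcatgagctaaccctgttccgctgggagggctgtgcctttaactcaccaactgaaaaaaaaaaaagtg
Thbs2: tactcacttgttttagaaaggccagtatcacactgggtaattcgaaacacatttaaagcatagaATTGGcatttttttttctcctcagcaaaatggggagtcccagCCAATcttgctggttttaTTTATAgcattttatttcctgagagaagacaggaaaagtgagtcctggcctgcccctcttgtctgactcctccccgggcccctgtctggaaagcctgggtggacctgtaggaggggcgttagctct
Thbs3: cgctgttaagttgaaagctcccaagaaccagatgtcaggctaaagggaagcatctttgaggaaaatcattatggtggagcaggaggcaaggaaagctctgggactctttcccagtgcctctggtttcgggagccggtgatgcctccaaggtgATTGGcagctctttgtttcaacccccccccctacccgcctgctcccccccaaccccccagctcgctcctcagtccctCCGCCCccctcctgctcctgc
Upstream of Tnc, an EGR motif and a GC box overlapped, and a TATA box began at base -126 from the listed start. Thbs2 also had a TATA box there, on the other strand, together with 2 CCAAT boxes, and Thbs3 had a CCAAT box and a GC box without a TATA box. Across 32841 windows of the same length, 12.4% held the TATA box, 32.7% the GC box, 33.9% the CCAAT box, 6.75% the AP-1 motif, 4.7% the EGR motif and 1.47% the CArG box. Of the 8 genes with a window, none held the AP-1 motif or the CArG box, 2 the TATA box, 4 the GC box, 3 the CCAAT box and 1, Tnc, the EGR motif. A match describes the letters only and does not show that a factor is bound.

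Sparc, the collagen-binding glycoprotein osteonectin, sat near the top of every array, with group means of its percentile between 98.6 and 99.0. The inducible arrays read 11.66, 11.69 and 11.64 with DMSO and 11.65, 11.70 and 11.65 with RSL, and the parental arrays 11.51, 11.55 and 11.49 with DMSO and 11.45, 11.44 and 11.47 with RSL. The lines did not overlap, but their difference was small, 0.15 under DMSO (standard error 0.03) and 0.21 under RSL (standard error 0.03). RSL gave 0.00 in the clone (95% interval -0.06 to 0.07). In parental cells all RSL arrays lay below all DMSO arrays, at -0.06 (standard error 0.03, adjusted p = 0.525 from limma), which did not pass.

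Postn, which encodes periostin, read low, below the first quartile on 10 of 12 arrays. The inducible arrays read 6.17, 6.20 and 6.0 with DMSO and 6.27, 6.24 and 6.30 with RSL. Those of the parental line read 6.07, 6.10 and 6.08 with DMSO and 6.04, 6.09 and 6.0 with RSL. In the clone the RSL arrays lay above the DMSO arrays, with a mean higher by 0.15 (standard error 0.04), and this did not pass (adjusted p = 0.104 from limma). The estimate was 0.09 (adjusted p = 0.353) without inducible DMSO replicate 3, the lowest array of its group. The parental estimate was -0.04, and the difference between the lines, 0.18 (95% interval 0.05 to 0.32), had an adjusted p of 0.291 in limma and did not pass.

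The ligand estimates of the 3 fibulins lay between -0.02 and 0.11, and none passed. Fbln1, whose product binds fibronectin and basement membrane proteins, ranged from 6.52 to 6.72 over the 12 arrays, and all its groups overlapped. Its RSL estimate was 0.04 in the clone (adjusted p = 0.87 from limma) and 0.03 in the parental cells (adjusted p = 0.819). Fbln2, a fibulin of basement membranes and elastic fibers, read 9.56, 9.58 and 9.45 on the inducible arrays with DMSO and 9.65, 9.56 and 9.58 with RSL. In the parental cells it read 9.40, 9.42 and 9.44 with DMSO and 9.55, 9.53 and 9.50 with RSL, so that the RSL arrays lay above the DMSO arrays in the parental line and overlapped with them in the clone. The log2 fold changes were 0.11 in parental cells (standard error 0.04, adjusted p = 0.388 from limma) and 0.07 in the clone (standard error 0.04, adjusted p = 0.562), and the difference between them, -0.05 (95% interval -0.16 to 0.07), did not pass. Fbln5, which is required for the assembly of elastic fibers, read 7.95, 7.84 and 7.92 in the clone with DMSO and 7.96, 7.97 and 7.97 with RSL. Its parental arrays read 7.81, 7.73 and 7.70 with DMSO and 7.74, 7.68 and 7.74 with RSL. All inducible arrays lay above all parental arrays, with a gap of 0.03. The group means differed by 0.16 under DMSO (standard error 0.04) and 0.25 under RSL (standard error 0.04). Its RSL estimates were 0.06 in the clone (adjusted p = 0.565 from limma) and -0.02 in the parental cells (adjusted p = 0.869).

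**Figure D2:**
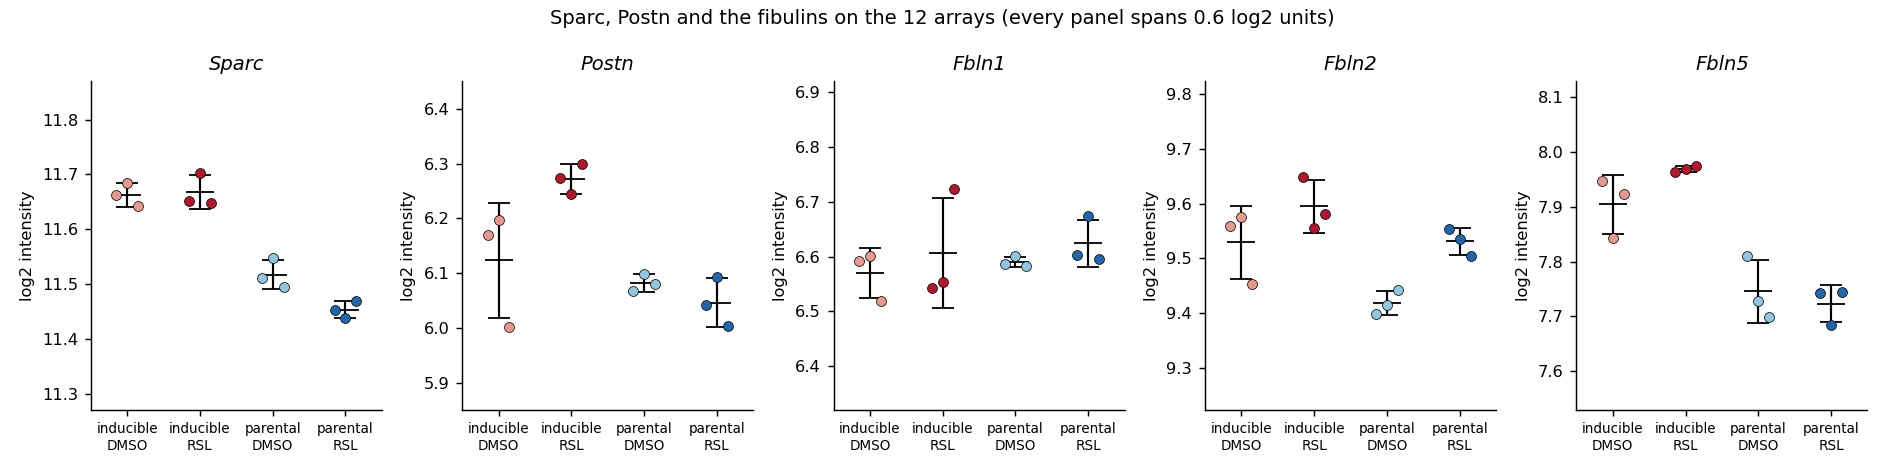
Log2 intensity of Sparc, Postn, Fbln1, Fbln2 and Fbln5 on each of the 12 arrays (points, 3 per group), with black bars for group means and SDs. The panels have axes of equal height, much narrower than those used for Thbs1. Sparc and Fbln5 sit higher on all inducible arrays than on any parental array, and the third inducible array given DMSO is the lowest of its group for Sparc, Postn, Fbln1 and Fbln2.

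Set side by side, all 6 inducible arrays lay above all 6 parental arrays for 5 of the 9 genes, Thbs1, Tnc, Thbs2, Sparc and Fbln5, and the other 4 overlapped. Of all 16475 probe sets, 13.2% had every inducible array above every parental one. The median difference of the 9 genes was 0.15 under DMSO and 0.23 under RSL, against -0.01 and -0.02 over all probe sets. Under DMSO, Thbs1, Tnc and Thbs2 lay beyond the central 95% of all probe sets, which ran from -0.31 to 0.32, and the other 6 lay within it. Because the genes were chosen with this contrast known, nothing is read from these counts. Some markers of other cell types moved with the same contrast. Under DMSO the endothelial marker Tie1 was higher in the clone by 0.73 (adjusted p = 5.24e-08 from limma), the 1 endothelial marker of 6 that passed. Tie1 lay below the first quartile on 6 of the 12 arrays, so the size of its difference is uncertain. The macrophage marker Cd68 was higher by 0.40 (adjusted p = 3.9e-06 from limma). Csf1r and Cd14 of the same list went the other way, at -0.20 (adjusted p = 0.00115 from limma) and -0.16 (adjusted p = 0.00302). The epithelial marker Cdh1, higher by 0.17 (adjusted p = 0.0043 from limma), was the 1 of 6 that passed. It lay below the first quartile on all 12 arrays, as did Pecam1, Cdh5 and Ptprc. Of the 9 fibroblast markers 4 were higher and 3 lower, from 0.73 for Col1a1 to -0.67 for Pdgfrb. Of all probe sets, 29.7% passed in this contrast.

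**Figure D3:**
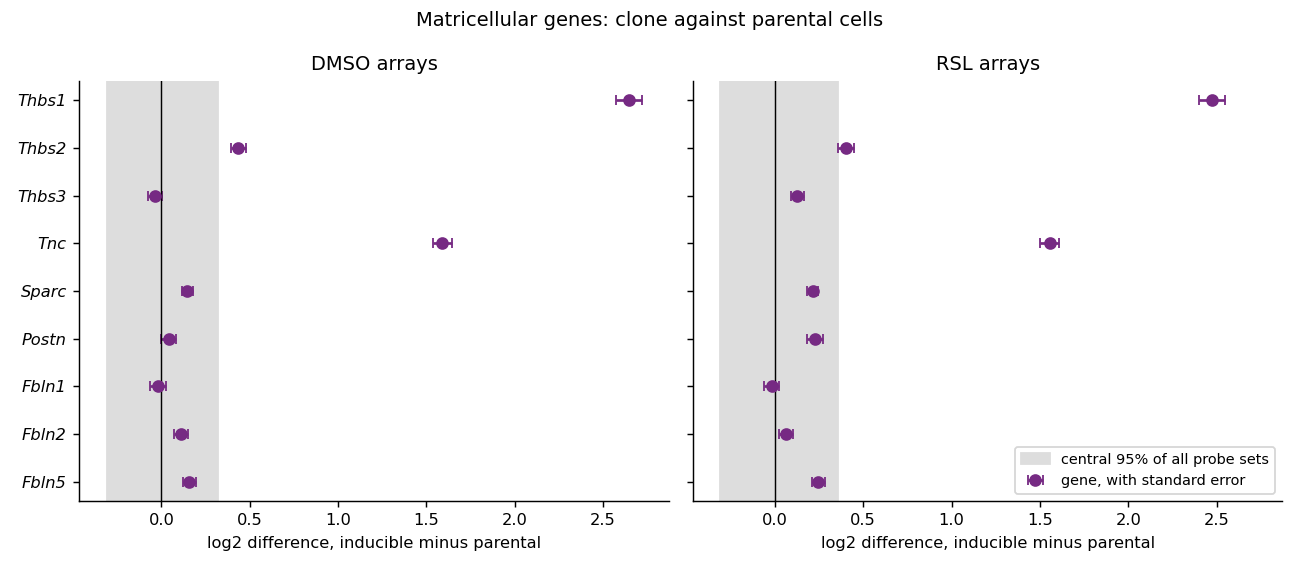
Log2 difference, inducible minus parental cells, of the 9 genes under DMSO (left) and under RSL (right), each point with its standard error from the fit of all 12 arrays. The grey band holds the central 95% of all 16475 probe sets, and Thbs1, Tnc and Thbs2 lie to the right of it in both panels.

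For the ligand, 1 of the 9 genes passed in the clone, Thbs3, against 2.54% of all probe sets. There 3 had an unadjusted p under 0.05 in limma, Thbs2, Thbs3 and Postn, all higher, against 12.3% of all. Among parental arrays 0 of 9 passed in limma, where 0.0303% of all probe sets did, and 3 had an unadjusted p under 0.05, Thbs1, Thbs2 and Fbln2, all higher, against 9.71% of all. The methods' one-way analysis of the parental arrays gave 0 after adjustment and 3 at its nominal threshold, Thbs2, Sparc and Fbln2, where 7.44% of all probe sets were under it. In the clone it gave 0 after adjustment and 1 at the nominal threshold, Thbs3, where 1913 of all 16475 probe sets were under it. For the difference of the 2 responses 0 of 9 passed in limma, where 0.662% of all did, and Thbs3 and Postn had an unadjusted p under 0.05, against 9.07% of all. All RSL arrays lay above all DMSO arrays for 4 genes in the clone, Thbs2, Thbs3, Postn and Fbln5, and for 2 in the parental cells, Thbs2 and Fbln2. The shares of all probe sets were 9.34% and 7.12%. Sparc in the parental cells was the 1 gene with the reverse order, found for 6.15% of all.
In the clone the log2 fold changes of all 9 genes were above 0, between 0.00 and 0.20, with a median of 0.06 against 0.00 over all probe sets, of which 52.2% were above 0. The count depended on single arrays. Inducible DMSO replicate 3 was the lowest of its group for 7 of the 9 genes, against 35.3% of all probe sets. Without it 6 of 9 were above 0, with a median of 0.03, and the estimates for Thbs1, Tnc and Sparc turned to -0.07, -0.01 and -0.01. Without inducible RSL replicate 2 the estimates for Thbs1 and Sparc were -0.02 and -0.01, and without inducible RSL replicate 3 that for Fbln1 was -0.02. Thbs3 kept its call without inducible DMSO replicate 3 (0.21, adjusted p = 0.0278).

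**Figure D4:**
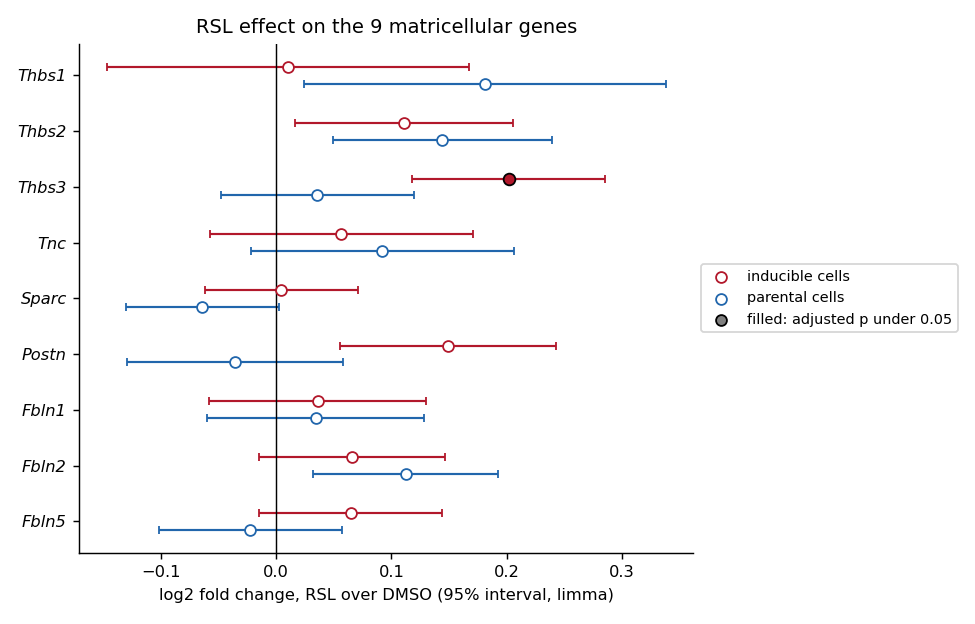
Log2 fold change, RSL over DMSO, of the 9 genes in inducible cells (red) and in parental cells (blue), with the 95% interval from limma. The filled point, Thbs3 in inducible cells at 0.20, is the only one with an adjusted p under 0.05.

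The surroundings of these proteins were described with 5 lists of other genes, of which 75 of 82 genes had a named probe set. In the clone given RSL, 8 of the 75 passed, 2 higher and 6 lower, where 1.32% of all probe sets were called higher and 1.21% lower. Ccn2, a matricellular protein and response gene of TGF-beta and YAP, rose from 11.14 ± 0.02 (SD, n = 3) to 11.66 ± 0.04 (SD, n = 3), which is 0.52 on the log2 scale with a standard error of 0.05 (adjusted p = 3.71e-05 from limma). Ltbp2, a microfibril protein that binds fibulin-5, rose by 0.20 (adjusted p = 0.00289). Smad7, the inhibitory Smad induced by TGF-beta, fell by 0.23 on the log2 scale (adjusted p = 0.00378) and Itga6, an integrin chain for laminin and thrombospondin, fell by 0.25 (adjusted p = 0.00208). Col6a3, a chain of collagen VI, fell by 0.24 (adjusted p = 0.00776). The calls of Lrp1, the endocytic receptor that clears thrombospondins, at -0.28, of Ltbp1, which anchors latent TGF-beta, at -0.20, and of Tgif1, a corepressor of Smads, at -0.18, were weak. Without inducible DMSO replicate 1 these calls ended, at -0.18 for Lrp1 (adjusted p = 0.168), -0.17 for Ltbp1 (adjusted p = 0.117) and -0.13 for Tgif1 (adjusted p = 0.167), and that of Col6a3 ended at -0.21 (adjusted p = 0.0575). They also ended without inducible DMSO replicate 2 or inducible RSL replicate 1 for Lrp1, Ltbp1 and Tgif1, without RSL replicate 2 for Lrp1 and Tgif1, without RSL replicate 3 for Lrp1 and Ltbp1, and without parental RSL replicate 1 for Lrp1. The medians of the 5 lists were between -0.01 and 0.01. Among parental arrays 0 of the 75 passed in limma, and 15 had an unadjusted p under 0.05, where 9.71% of all probe sets did. The 8 genes called in the clone had parental estimates of the same sign, except Tgif1 at 0.04. Among these estimates were 0.24 for Ccn2, -0.14 for Col6a3 and -0.15 for Ltbp1. For the difference of the responses 1 of the 75 passed, Tgfb3, where 0.662% of all probe sets did. The 8 responses are therefore not shown to be particular to the clone.

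Between the cell lines under DMSO, 38 of the 75 passed, 19 higher and 19 lower in the clone, where 29.7% of all probe sets passed (15.2% higher and 14.5% lower), and under RSL 45 passed, where 34.2% of all did. Among 15 other thrombospondins and matricellular proteins 2 were higher and 2 lower. Fstl1, a secreted relative of SPARC, was higher by 1.03 (standard error 0.04, adjusted p = 1.51e-11 from limma) and Tnxb, tenascin X, by 0.46, while Tgfbi, the closest relative of periostin, was at -0.77 and Ecm1, an extracellular matrix glycoprotein, at -0.70. Of 20 receptors 4 were higher and 2 lower. Cd47, the receptor for the C-terminal domain of thrombospondin 1, was higher by 0.50 (standard error 0.03, adjusted p = 5.8e-09 from limma) and Sdc4, a heparan sulfate proteoglycan of focal adhesions, by 0.34, while Itga8, an integrin chain for tenascin C, was at -0.78 and Itga6 at -0.70. Cd36, the receptor for the type 1 repeats, lay below the first quartile on every array. Tgfbi and Itga8 also read low in the clone, with means of 6.22 and 6.14 under DMSO. They lay below the first quartile on 6 and 4 of the 12 arrays, so the sizes of their differences are uncertain.
Of 16 elastic fiber genes 4 were higher and 6 lower. Ltbp2 was at -1.05 (standard error 0.03, adjusted p = 3.98e-13 from limma), Ltbp1 at -0.70 and Loxl3, a lysyl oxidase relative, at -0.35, while its relative Loxl4 was higher by 0.43. Of 12 partners among fibronectin and the collagens 6 were higher, led by Col5a2 at 0.76, Col1a1 at 0.73 and Col5a1 at 0.43, and 4 were lower, among them Col6a1 at -0.39. Of 13 ligands and response genes of TGF-beta 3 were higher and 6 lower. Tagln, a smooth muscle actin-binding protein, was higher by 0.33, while the ligand gene Tgfb3 was at -0.39 and Tgif1 at -0.43. The median of the fibronectin and collagen list was 0.16, and those of the other 4 lists lay between -0.01 and 0.02, against -0.01 over all probe sets. Ltbp2 is counted both among the elastic fiber genes and among those of TGF-beta.

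**Figure D5:**
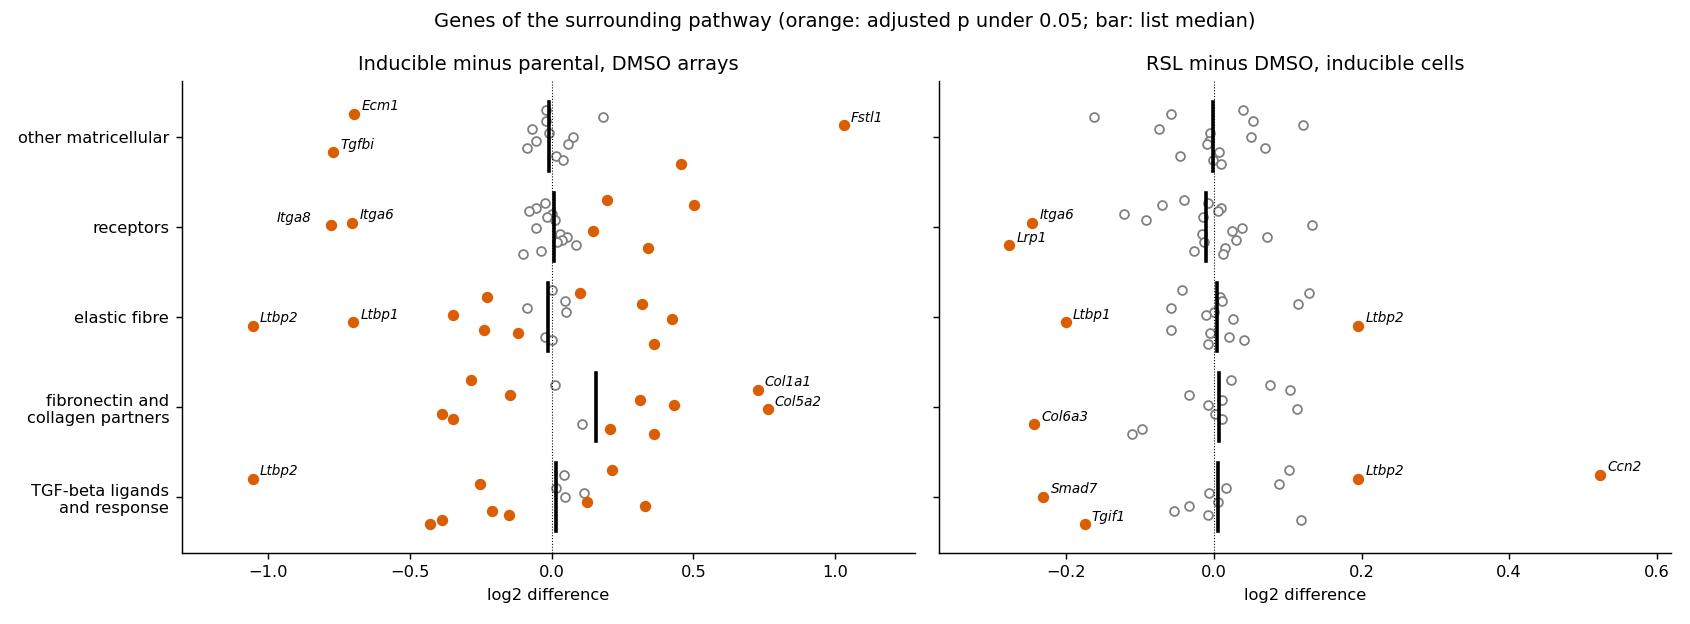
Log2 differences of the genes in 5 lists (points, 1 per gene), between inducible and parental cells under DMSO (left) and between RSL and DMSO in inducible cells (right), with black bars at the list medians. Orange points have an adjusted p under 0.05 in limma, and the axes of the panels differ. Fstl1 at 1.03 and Ltbp2 at -1.05 are the outermost genes on the left and Ccn2 at 0.52 on the right.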

How the data were processed

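RNA levels were read on 12 arrays. The table deposited by the authors holds log2 values, for which probes were regrouped by Entrez gene (Custom CDF), background was corrected by RMA and arrays were quantile normalized. No source states the log base, which follows from the size of the values, or how the probes of a gene were summarized. No column belongs to another sample. Of 16539 probe sets, 64 hybridization controls were left out. Of the other 16475, 15780 have 1 gene symbol in the annotation used, and 695 were tested without a name.
All 12 arrays entered 1 limma model (version 3.58.1, R 4.3.3) with a mean for each group, 8 residual degrees of freedom and moderated variances. P-values were adjusted by Benjamini-Hochberg over all 16475, and a value under 0.05 was called. The methods name a one-way analysis with a nominal p, which was run as an alternative. Further alternatives were the replicate number as a block, dropping the dimmest 40% of probe sets, an intensity trend, array weights, median subtraction, repeated quantile normalization, the 6 arrays compared alone and leaving out each array. The fit was tested on simulated data.
The 9 genes and the lists were chosen with earlier results of these data known. All 9 are named, together with up to 4 called genes of the smallest p per list and comparison, and Cd36 for its role. Between the lines under RSL only the number of list genes that passed is given, and none is named. Replicates are labelled biological, with nothing on whether the cultures were separate, so p-values measure the spread between arrays, whose number limits the precision. With 3 against 3, an exact permutation test cannot go below 0.1. Scan dates and RNA batches were not analysed here.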

Additional observations from a re-analysis of the deposited data

Results flagged for a closer look

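Tgfb3, a TGF-beta ligand gene, had an RSL effect that differed between the cell lines when the difference itself was tested. The effect in inducible cells minus that in parental cells was 0.24 (standard error 0.05, adjusted p = 0.0405 from limma). Within the lines the estimate was 0.12 in inducible cells (adjusted p = 0.125 from limma) and -0.13 in parental cells (adjusted p = 0.366), and neither passed. Leaving out 1 array moved the difference to between 0.22 and 0.28 and the adjusted p to between 0.0253 and 0.126, and the call ended in 9 of 12 such fits, that is without any array other than inducible RSL replicate 3, parental DMSO replicate 3 and parental RSL replicate 3.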

How the results depend on the processing

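The call of Thbs3 in inducible cells held under the replicate block, the low-level filter, the intensity trend, array weights, both renormalizations and the 6 arrays alone. The methods' one-way analysis gave 0 of the 9 genes after adjustment in the clone (adjusted p = 0.217 for Thbs3) and 0 in the parental cells. At its nominal threshold it gave 1 in the clone, Thbs3, where 1913 of all 16475 probe sets were under it. In the parental cells it gave 3 at that threshold, where 7.44% of all probe sets were under it. After adjustment it called 1 of all 16475 probe sets in the clone. Leaving out 1 array gave 0 to 1 of the 9 genes in the clone, 0 in the parental cells and 0 for the difference, and 36 to 40 and 39 to 47 list genes between the lines under DMSO and RSL. With array weights 14 list genes passed for RSL in the clone, 4 in the parental cells and 5 for the difference. In the model used these counts were 8, 0 and 1. Of all probe sets 736, 106 and 375 passed with array weights. The clone difference of Thbs1 stayed between 2.60 and 2.73 under DMSO when 1 array was left out, and that of Tnc between 1.55 and 1.66. That of Postn under DMSO, 0.04, ranged from 0.00 without inducible DMSO replicate 2 to 0.10 without inducible DMSO replicate 3, and that of Sparc under RSL moved from 0.21 to 0.17 with repeated quantile normalization. The cause was not tested. Over all probe sets and the alternatives other than the one-way analysis, calls ranged from 204 to 736 in the clone (418 in the model used), from 1 to 106 in the parental cells (5) and from 56 to 375 for the difference (109).
Same-numbered arrays of different groups had a median correlation of deviations of -0.072, against 0.056 for arrays of other numbers. Of 12 arrays 2 were closest to their own number. With so few arrays this does not settle whether replicates of a number were handled together. The replicate block left 1 of the 9 genes called in the clone, ended the calls of Lrp1 (adjusted p = 0.0591), Tgif1 (0.0592) and Tgfb3 (0.0801), and left 37 and 44 list genes called between the lines under DMSO and RSL (38 and 45 without the block).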

Other observations

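The genes that lie beside the 9 genes on their chromosomes were looked up in the RefSeq annotation after the values had been seen, taking the nearest 2 with a named probe set on either side. Around Thbs1 these were Fam98b, Rasgrp1, Fsip1 and Gpr176. Their differences between inducible and parental cells under DMSO lay between -0.13 and 0.01, against 2.65 for Thbs1 itself, and Gpr176 passed in limma at -0.13 (adjusted p = 0.0246). Around Tnc, with 1.59, the neighbors Tex48, Tnfsf8, Pappa and Astn2 lay between -0.06 and 0.02, and none passed in limma, at adjusted p-values of 0.523 to 0.983. Rasgrp1, Fsip1, Pappa and Astn2 read below the first quartile on all 12 arrays. Around Postn 3 of 4 neighbors passed in limma, and the 4 lay between -0.23 and -0.04. Beside Fbln2, Chchd4 passed at 0.25 (adjusted p = 0.000387 from limma). Around Thbs2 and around Sparc 1 neighbor each passed, and around Thbs3, Fbln1 and Fbln5 none did. Of all probe sets, 29.7% passed in this contrast. Gpr176, an orphan receptor gene, rose with RSL in the clone by 0.24 (standard error 0.04, adjusted p = 0.00378 from limma).
The gene before Thbs3 is Mtx1, a metaxin of mitochondrial protein import that is read in the opposite direction from a shared promoter region in the mouse. Mtx1 had a log2 fold change of 0.04 with RSL in the clone (standard error 0.04, adjusted p = 0.798 from limma), against 0.20 for Thbs3, and that of Muc1, on the other side, was -0.01. The difference between these genes was not tested.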
